A study of Homo sapiens with 4 samples.

Results

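The genes described here are 9 regulators of the switch from fetal to adult globin, chosen by name: BCL11A, ZBTB7A, SOX6, NFIX, NFIA, LIN28B, IGF2BP1, MYB and HIC2. Each of the 9 symbols matched 1 gene among the 32673 in the expression table. The study asked how chronic myeloid leukaemia cells become resistant to imatinib, the inhibitor of the BCR-ABL tyrosine kinase, and compared RNA of an imatinib-sensitive line, TF1-BA, with that of an imatinib-resistant line, TF1-BAR, in 2 libraries per line. TF1 is a human cell line with erythroid features that depends on GM-CSF or a related cytokine. TF1-BA cells are TF1 cells given BCR-ABL by a retrovirus, and TF1-BAR cells were derived from TF1-BA cells by 6 months of continuous imatinib. Both lines therefore carry BCR-ABL. Per the labels, both grew with GM-CSF at 2 ng/ml and the BAR culture also received imatinib at 2 uM, and each replicate was 10000000 cells, although the methods give a higher GM-CSF concentration than the labels. The labels title the TF1-BAR libraries as vector libraries, and an effect of a vector cannot be told apart from resistance here. Neither can an effect of the drug itself, since the sources used here do not state whether it was present when RNA was taken. Each line is a single line sampled as 2 libraries, with nothing to say that the libraries are separate cultures, so p-values measure only the spread between these samples, which may be technical.

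Human red cells make embryonic, then fetal, then adult globins, and the fetal genes HBG1 and HBG2 are silenced after birth. BCL11A and ZBTB7A are repressors that bind at the fetal globin promoters and recruit the NuRD chromatin complex, and SOX6 works with BCL11A. NFIA and NFIX are nuclear factor I proteins reported to act with these repressors. LIN28B and IGF2BP1 are RNA-binding proteins of the fetal programme. LIN28B blocks the maturation of let-7 microRNAs, and both proteins reduce BCL11A protein in red cell precursors. HIC2 is a repressor of BCL11A transcription that is itself a target of let-7, and MYB is a progenitor factor whose loss raises fetal globin.

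Expression was given as FPKM, sequenced fragments divided by transcript length and by library size, so that levels of different genes can be set beside each other. The libraries held 15465497 to 18042299 fragments, recovered from the FPKM values themselves. Differences were tested with limma on log2(FPKM + 0.5). The test took in the 15519 genes whose mean reached 0.5 FPKM, with Benjamini-Hochberg adjusted p-values, and a log2 fold change always means TF1-BAR minus TF1-BA on that scale. With 2 libraries against 2, an exact permutation test of a single gene cannot give a two-sided p below 0.333, so the spread was shared across genes.

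Of the 9 regulators, 8 were tested, all with an FPKM above 1 in every library, and SOX6 fell under the filter. In TF1-BAR cells, 4 of the 8 were upregulated at an adjusted p under 0.05: LIN28B, BCL11A, IGF2BP1 and HIC2. The other 4, MYB, ZBTB7A, NFIX and NFIA, did not pass, and 0 of the 8 were downregulated. Among all genes tested, 16.3% passed as higher, 10.5% passed as lower and 26.9% passed in either direction. LIN28B alone was also past a log2 fold change of 1, which 4.75% of all genes were in either direction together with the adjusted p. The libraries of the 2 lines did not overlap for 6 of the 8, against 69.3% of all genes tested. The median log2 fold change was 0.44 over the 8 regulators and 0.066 over all genes tested. These are counts over few genes that were chosen with earlier results known and are given as a description.

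**Figure D1:**
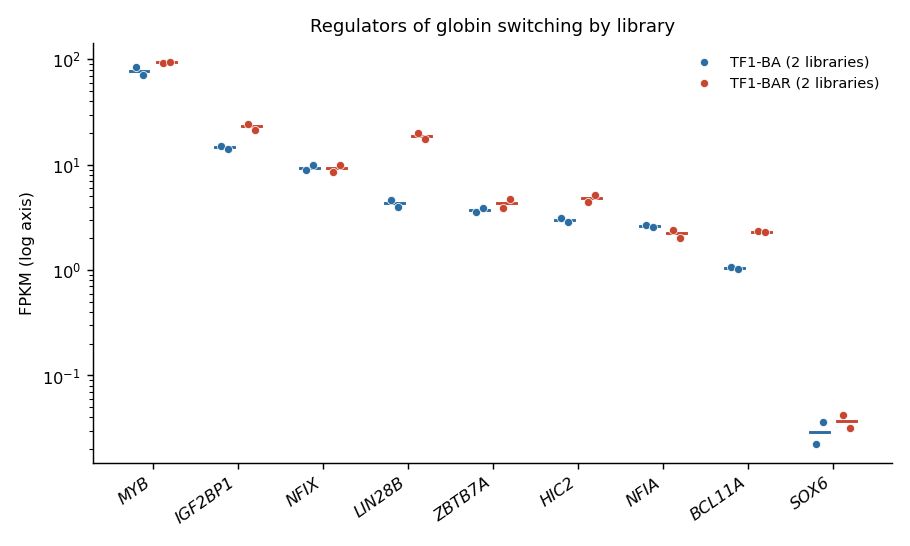
FPKM of the 9 regulators on a log axis, with 1 point per library, 2 libraries for each line and a bar at the mean. LIN28B rose from 4.59 and 4.01 to 20.2 and 17.5, BCL11A, IGF2BP1 and HIC2 sit higher in both TF1-BAR libraries, and SOX6 lies far under the others in every library.

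LIN28B showed the largest difference of the 9. The gene lies on chromosome 6 from 104936616 to 105083332 on the plus strand of GRCh38. Its FPKM was 4.59 and 4.01 in TF1-BA cells and 20.2 and 17.5 in TF1-BAR cells, from 497 and 372 fragments against 1908 and 1691. All TF1-BAR values were far above both TF1-BA values. The mean rose from 4.30 ± 0.411 (SD, n = 2) to 18.8 ± 1.87 (SD, n = 2), a ratio of 4.38. The log2 fold change was 2.01 with a 95% confidence interval of 1.73 to 2.29 (SE 0.109, adjusted p = 0.00289). The TF1-BA mean lay at the middle of all genes tested and the TF1-BAR mean above 84.6% of them. The call was lost narrowly without TF1-BA replicate 2 (adjusted p = 0.0503) and was kept in the other 15 of 16 alternatives, over which the adjusted p began at 2.08e-08. The antisense gene LIN28B-AS1, which lies across it, had at most 1 fragment in any library, and the libraries kept no strand.

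**Figure D2:**
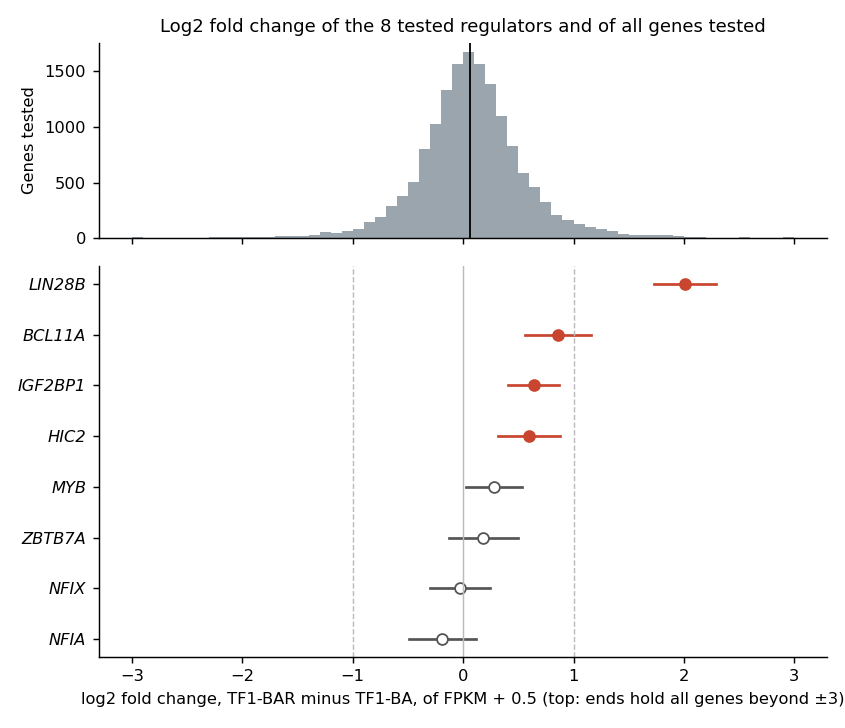
Log2 fold change, TF1-BAR minus TF1-BA, of FPKM + 0.5. The top panel counts all 15519 genes tested in bins, with a line at their median of 0.066, and the lower panel gives the 8 tested regulators with 95% confidence intervals, filled where the adjusted p was under 0.05. Dashed lines mark log2 fold changes of 1 and −1, and only the LIN28B interval lies wholly past one of them.

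LIN28B and let-7 repress each other, so the let-7 sequences are shown with the places they can pair with in the regulators' messages. The seed of a microRNA, bases 2 to 8 from its 5′ end, is in capitals in the mature let-7 sequences, which were taken from RefSeq on GRCh38.p14. The same seed, GAGGUAG, is shared by 11 mature microRNA names in that table, the let-7 family with miR-98, miR-4458 and miR-4500.
let-7a-5p: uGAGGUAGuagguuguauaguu
let-7b-5p: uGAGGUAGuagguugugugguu
let-7g-5p: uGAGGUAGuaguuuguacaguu
LIN28 proteins are known to bind a GGAG in the loop region of let-7 precursors. Of the 11 let-7 hairpins in the table, 9 hold GGAG, and those of MIRLET7A3 and MIRLET7B do not. One hairpin of each kind is shown, with the GGAG in capitals.
MIRLET7G: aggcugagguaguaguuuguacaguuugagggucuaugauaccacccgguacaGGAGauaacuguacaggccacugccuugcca
MIRLET7A3: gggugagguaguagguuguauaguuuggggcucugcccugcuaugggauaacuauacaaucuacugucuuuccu
Neither mature let-7 nor its activity was measured in these libraries.

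The 3′ untranslated regions of the MANE Select transcripts in GENCODE 44 were searched for CTACCTC, the sequence that pairs with the let-7 seed, on the message strand only. LIN28B, IGF2BP1 and HIC2 each held 4 matches, NFIA held 1, and BCL11A, ZBTB7A, SOX6, NFIX and MYB held 0. The sites of LIN28B, IGF2BP1 and HIC2, the regulators with the most matches, are printed to show where let-7 could pair. The fourth upregulated regulator, BCL11A, has none. Each is a stretch of 30 bases with the match in capitals, and a further capital A where the match is followed by one, which is the stronger form of the site. All lie on the plus strand of GRCh38, in the last part of each gene after the stop codon.
LIN28B, chr6:105078816-105078845: ggttgcaaagtCTACCTCAtgcaagtatag
LIN28B, chr6:105081243-105081272: gatgatagtaaCTACCTCtgagtttgacac
LIN28B, chr6:105081425-105081454: acagcaaaaggCTACCTCAtagttgataca
LIN28B, chr6:105082864-105082893: gatggtgttgaCTACCTCttgaatcacatc
IGF2BP1, chr17:49051065-49051094: tgcgaagtaaaCTACCTCAaggtatgaagt
IGF2BP1, chr17:49053702-49053731: agtgctagtaaCTACCTCAcagagccccag
IGF2BP1, chr17:49054356-49054385: aaatggattaaCTACCTCAatccttacagt
IGF2BP1, chr17:49055001-49055030: ttttgttttatCTACCTCttagcaaaacaa
HIC2, chr22:21446943-21446972: tcccagcccgtCTACCTCcccatcccaccc
HIC2, chr22:21447275-21447304: gaccccaccgcCTACCTCtctacatctaaa
HIC2, chr22:21447890-21447919: ctgaccttttgCTACCTCttgaattcatga
HIC2, chr22:21450886-21450915: accccctccccCTACCTCAccttgctattt
The match with a following A occurred 2 times in LIN28B, 3 times in IGF2BP1 and 1 time in HIC2. The untranslated regions searched were 4552, 6704 and 4723 bases long in these 3 genes.

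Such a number of matches was rare. Among the 11559 tested genes with a 3′ untranslated region in this annotation, 10 genes (0.0865%) held 4 or more, and LIN28B, IGF2BP1 and HIC2 are 3 of them. LIMD2 was the other gene of the 10 that passed (log2 fold change 0.37, adjusted p = 0.0185, limma). The remaining 6 did not pass, with log2 fold changes from 0.20 (HEMK1) to −0.37 (TRIM71). The median over the 10 was 0.053, close to the 0.031 of the 10302 genes with no match, so the class as a whole differed little from genes without a match. The share of genes that were upregulated was 16.2% with 0 matches, 18.6% with 1, 21.6% with 2, 27.8% with 3 and 40.0% with 4 or more, the last being 4 of 10 genes. LIN28B, IGF2BP1 and HIC2, which prompted the search, are 3 of those 4, and 1 of the other 7 genes passed. The share that were downregulated went the other way, 12.9%, 9.87%, 7.20%, 0% and 0%, so that the share past in either direction was 29.1%, 28.4%, 28.8% and 27.8% with 0 to 3 matches. The median length of the untranslated region grew with the number of matches, from 1140 bases at 0 to 5986 at 4 or more, and its part in these shares was not tested. The search was made after the values were seen, and a match says only that the letters are there.

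**Figure D3:**
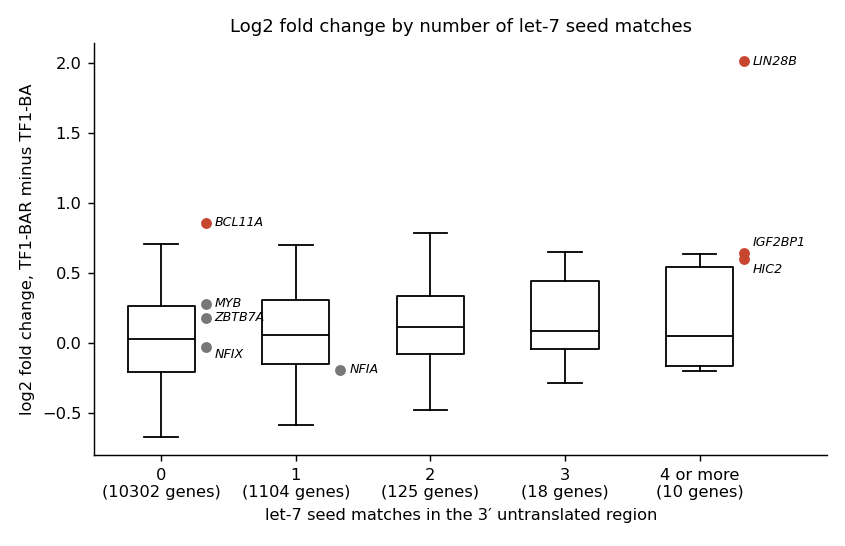
Log2 fold change, TF1-BAR minus TF1-BA, by the number of let-7 seed matches in the 3′ untranslated region. Boxes show the median and quartiles of all tested genes in a class and whiskers the 5th and 95th percentiles. Points are the regulators, red where the adjusted p was under 0.05, and LIN28B at 2.01 is the highest of its class of 10 genes, whose median is 0.053.

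IGF2BP1, a partner of LIN28B in the fetal programme that binds messenger RNA and affects its stability, was upregulated to a lesser extent. The gene spans 48997412 to 49055650 on the plus strand of chromosome 17. Its FPKM was 15.0 and 14.2 in TF1-BA cells and 24.6 and 21.6 in TF1-BAR cells, from 2006 to 3527 fragments. The values of the lines did not overlap. The log2 fold change was 0.64 with an interval of 0.41 to 0.87 (SE 0.0886, adjusted p = 0.0116), equal to a fold of 1.33 to 1.82. The call was lost without TF1-BA replicate 1 (adjusted p = 0.0841) and without TF1-BA replicate 2 (0.0986), and the adjusted p over the 16 alternatives ran from 5.51e-05 to 0.0986. Its log2 fold change stayed between 0.55 and 0.73 in all of them.

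HIC2, a zinc finger repressor known to hold BCL11A transcription down, and BCL11A itself were both upregulated. HIC2 lies on chromosome 22 from 21417404 to 21451463 on the plus strand, and its FPKM was 3.14 and 2.88 in TF1-BA cells and 4.48 and 5.19 in TF1-BAR cells. BCL11A lies on the minus strand of chromosome 2 from 60451167 to 60553567, and its FPKM was 1.07 and 1.03 against 2.34 and 2.30. Both TF1-BAR libraries exceeded both TF1-BA libraries for each of these genes. The log2 fold change of HIC2 was 0.60 with an interval of 0.32 to 0.88 (SE 0.108, adjusted p = 0.0206). That of BCL11A was 0.86 with an interval of 0.56 to 1.16 (SE 0.115, adjusted p = 0.0110) as its mean went from 1.05 ± 0.0265 to 2.32 ± 0.0322 FPKM (SD, n = 2). A gene and its known repressor thus stood higher in the same libraries, at the level of RNA.

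BCL11A was near the lower end of the tested range, with 162 and 134 fragments in TF1-BA cells against 309 and 309 in TF1-BAR cells. Because the added 0.5 FPKM compresses low values, its log2 fold change depended on the scale. It was 1.07 with 0.1 FPKM added and 1.13 by limma voom on recovered fragments, past a log2 fold change of 1 in both. The call of BCL11A was lost without TF1-BA replicate 1 (adjusted p = 0.0807), without the other TF1-BA library (0.0856) and without TF1-BAR replicate 2 (0.0588), within a range of 2.19e-05 to 0.0856. The call of HIC2 was lost without the same libraries, with adjusted p = 0.109, 0.138 and 0.0818, and with no filter on low values (0.0689), within a range of 0.000423 to 0.138. All log2 fold changes of the 2 genes in these alternatives were above 0, from 0.69 to 1.13 for BCL11A and from 0.51 to 0.70 for HIC2.

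MYB was the most highly expressed of the 9 regulators in both lines. It lies on the plus strand of chromosome 6 from 135181315 to 135219173. Its FPKM was 84.8 and 71.1 in TF1-BA cells and 93.3 and 95.0 in TF1-BAR cells, from 6037 to 8402 fragments. The lines did not overlap, but the TF1-BA libraries lay farther apart than the TF1-BAR libraries. The log2 fold change was 0.28 with an interval of 0.03 to 0.53 (SE 0.0967) and missed the threshold (adjusted p = 0.0944). It passed in 2 of 16 alternatives, limma voom (0.0185) and a test of protein-coding genes only (0.0370), both chosen after the data were seen, and the highest adjusted p was 0.385. The antisense gene MYB-AS1 had 17 to 29 fragments in the 4 libraries. Of the neighbouring genes that flank the enhancers between HBS1L and MYB, HBS1L (log2 fold change −0.05) and AHI1 (0.13) did not pass, and ALDH8A1 and PDE7B fell under the filter.

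For the repressor ZBTB7A, also called LRF, the FPKM was 3.55 and 3.92 in TF1-BA cells and 3.90 and 4.75 in TF1-BAR cells, and the lines overlapped. Its log2 fold change was 0.18 with an interval of −0.13 to 0.50 (adjusted p = 0.307). NFIX gave 8.92 and 9.92 against 8.58 and 9.90, with a log2 fold change of −0.03 and an interval of −0.30 to 0.24 (adjusted p = 0.859). The sign of this value turned in 3 alternatives, which gave 0.037 to 0.070. NFIA gave 2.66 and 2.55 against 2.43 and 2.04, without overlap, with a log2 fold change of −0.19 and an interval of −0.49 to 0.12 (adjusted p = 0.286). A change of 2-fold in either direction lay outside the interval of each of these 3 genes and of MYB.

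SOX6, the partner of BCL11A at the globin locus, was listed at 0.0226 and 0.0362 FPKM in TF1-BA cells and at 0.0420 and 0.0317 in TF1-BAR cells. These values rest on 8 and 11 fragments against 13 and 10, over a gene of which 3 fragments correspond to 0.00960 FPKM. SOX6 was not tested in the main comparison, and with no filter the log2 fold change was 0.02 (adjusted p = 0.833). C11orf58, a gene on the other strand that overlaps SOX6, stood at 13.7 to 16.9 FPKM, and fragments in any sequence the 2 genes share cannot be assigned without strand.

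In the order of mean FPKM, the regulators of TF1-BA cells ran MYB (77.9), IGF2BP1 (14.6), NFIX (9.42), LIN28B (4.30), ZBTB7A (3.74), HIC2 (3.01), NFIA (2.61), BCL11A (1.05) and SOX6 (0.0294). The libraries of neighbours in this order did not overlap. In TF1-BAR cells LIN28B (18.8) ranked 3, above NFIX (9.24). HIC2 (4.84) and ZBTB7A (4.32) overlapped, as did BCL11A (2.32) and NFIA (2.24), so their order was not set by these libraries. All 5 repressors of fetal globin, BCL11A, ZBTB7A, SOX6, NFIX and NFIA, stood under MYB and IGF2BP1 in both lines.

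The partners and pathways of the regulators were read from lists that followed what is known of them. Together these lists held 58 tested genes, of which 13 were upregulated and 6 downregulated, 32.8% against the 26.9% of all genes tested, and 0 passed a log2 fold change of 1. Of the 19 calls, 0 were left without either TF1-BA library, 7 without TF1-BAR replicate 2 and 13 with that library kept and TF1-BAR replicate 1 left out. The number of calls over all genes fell likewise, to 144 without TF1-BA replicate 1 and 42 without TF1-BA replicate 2 from 4167. The median log2 fold change of the 58 genes was 0.099.

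**Figure D4:**
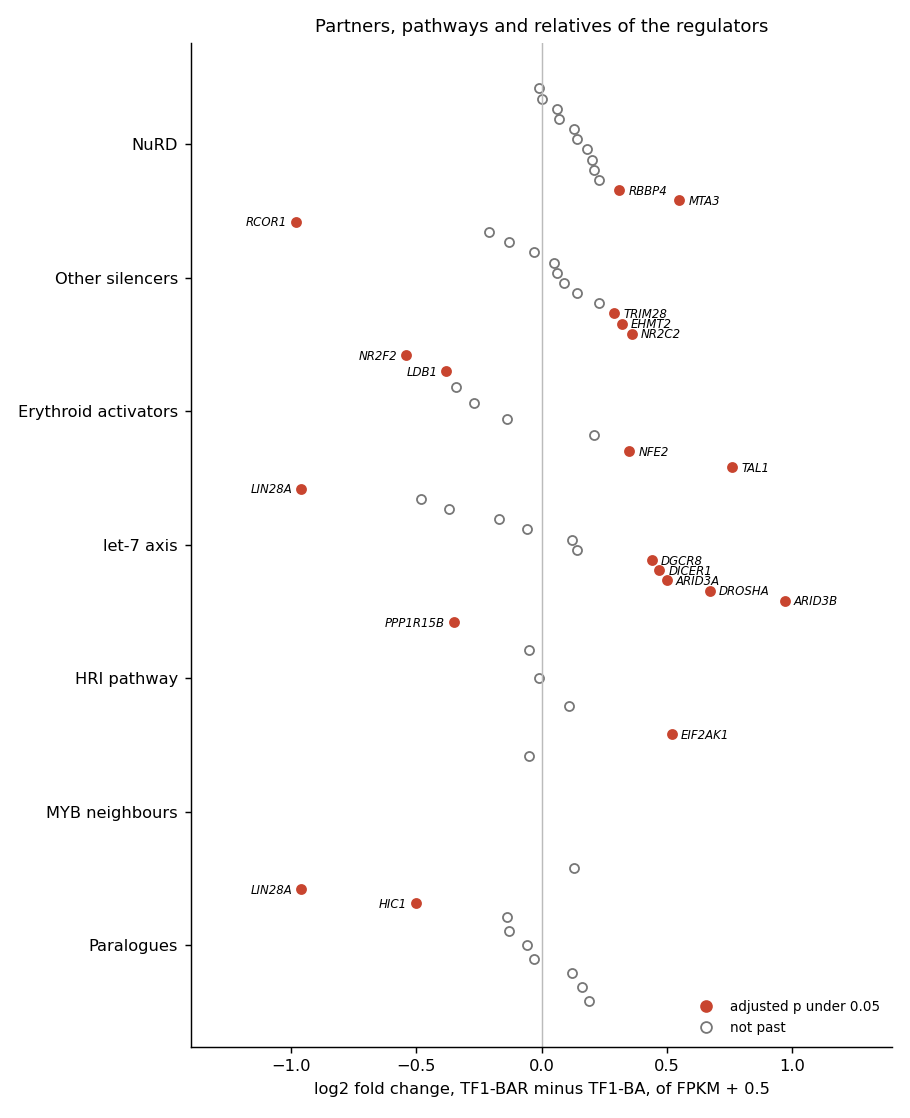
Log2 fold change, TF1-BAR minus TF1-BA, of the tested genes in 7 lists of partners, pathways and relatives, with 1 point per gene. Red points passed an adjusted p of 0.05 and are named, and every value lies between −0.98 (RCOR1) and 0.97 (ARID3B). LIN28A appears in 2 of the lists.

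The NuRD complex, the histone deacetylase and remodelling machine that BCL11A and ZBTB7A recruit, had 2 of 12 tested genes upregulated and 0 downregulated, with a median log2 fold change of 0.16. MTA3 rose from 5.03 ± 0.0434 to 7.65 ± 0.960 FPKM (SD, n = 2, log2 fold change 0.55, adjusted p = 0.0240), and RBBP4 rose from 21.0 and 21.8 to 27.0 and 26.3 (0.31, adjusted p = 0.0280). The catalytic subunits CHD4 (0.21, adjusted p = 0.0503), HDAC1 (0.18) and HDAC2 (0.14) did not pass, though CHD4 did in 5 of 16 alternatives. All 12 subunits were expressed in both lines, at 2.35 FPKM or more.

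Of 12 other silencers of fetal globin, 3 were upregulated and 1 was downregulated. RCOR1, the scaffold that joins the demethylase KDM1A to histone deacetylases, had the largest difference of this list. It fell from 78.1 and 74.0 FPKM to 38.2 and 38.1 (log2 fold change −0.98, SE 0.0605, adjusted p = 0.00344), while KDM1A itself was at 30.5 and 27.7 against 29.6 and 31.1 (0.06, adjusted p = 0.596). The upregulated genes were NR2C2 (0.36), an orphan nuclear receptor of the complex that binds the fetal promoters, the histone methyltransferase EHMT2 (0.32) and the corepressor TRIM28 (0.29). SPOP and CUL3, the ubiquitin ligase pair tied to fetal globin repression, gave −0.13 and 0.05 and did not pass, nor did the DNA methyltransferase DNMT1 (−0.03).

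Among 8 erythroid activators, 2 were upregulated and 2 were downregulated, and the median log2 fold change was −0.20. TAL1 rose from 22.0 and 21.7 FPKM to 34.4 and 40.6 (0.76, adjusted p = 0.00976) and NFE2 from 39.6 and 36.9 to 45.9 and 52.4 (0.35, adjusted p = 0.0423). NFE2 passed in 10 of 16 alternatives, with a highest adjusted p of 0.224. LDB1, which links TAL1 complexes at the globin enhancer, fell from 139 and 141 to 102 and 113 (−0.38, adjusted p = 0.0219), and NR2F2, a nuclear receptor, fell from 9.10 and 9.55 to 5.82 and 6.76 (−0.54, adjusted p = 0.0213). LDB1 lies on chromosome 10, where the median over 593 genes was −0.35. KLF1, the erythroid factor that activates both BCL11A and adult globin, was lower in both TF1-BAR libraries, 45.4 and 51.1 against 57.8 and 64.7 FPKM, but missed the threshold (−0.34, adjusted p = 0.0519). It passed in 6 of 16 alternatives, over which the adjusted p ran from 0.0110 to 0.260. GATA1 (−0.14) did not pass either.

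The let-7 axis held 12 tested genes of 16, of which 5 were upregulated and 1 downregulated. The 3 listed genes that cut microRNA precursors, or help to, were upregulated. DROSHA rose from 11.1 ± 0.109 to 17.9 ± 1.68 FPKM (SD, n = 2, 0.67, adjusted p = 0.0108), DICER1 by 0.47 (adjusted p = 0.0152) and DGCR8 by 0.44 (adjusted p = 0.0369). ARID3B, a let-7 target, rose from 13.8 and 15.2 to 25.0 and 32.9 (0.97, adjusted p = 0.0131), and its relative ARID3A from 12.8 and 12.8 to 17.3 and 19.4 (0.50, adjusted p = 0.0164). LIN28A, the paralogue of LIN28B, moved the other way, from 0.996 and 1.37 FPKM to 0.364 and 0.357 (−0.96, adjusted p = 0.0272), on 72 and 85 fragments against 23 and 23. The uridylyl transferases that act with LIN28A, listed as ZCCHC11 (0.12) and ZCCHC6 (−0.17), and the nuclease DIS3L2 (0.14) did not pass. The let-7 target HMGA2 had at most 1 fragment in any library. The let-7 host gene MIRLET7BHG had 6 and 11 fragments in TF1-BA cells and 34 and 67 in TF1-BAR cells and fell under the filter. MIR99AHG, another host gene of the list, stood the other way, with 127 and 147 fragments against 80 and 79. It was tested and did not pass (−0.48, adjusted p = 0.0979). MIR100HG, also listed, had at most 3 fragments in any library.

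Of the 9 tested paralogues of the regulators, 0 were upregulated and 2 downregulated, LIN28A and HIC1. HIC1, the relative of HIC2, fell from 1.96 and 2.10 FPKM to 1.20 and 1.39 (−0.50, adjusted p = 0.0441), a call kept in 9 of 16 alternatives, with a highest adjusted p of 0.208. IGF2BP3 gave 5.91 and 6.18 against 6.32 and 5.26 (−0.06, adjusted p = 0.703), and IGF2BP2 had 1 to 7 fragments. Thus the upregulated LIN28B, IGF2BP1 and HIC2 each had a relative that fell or did not pass, and the tests compared each gene between lines, not the genes with each other. In the pathway of HRI, the heme-regulated kinase that affects fetal globin, EIF2AK1, which encodes the kinase, rose from 38.1 and 38.7 to 52.0 and 59.1 FPKM (0.52, adjusted p = 0.0144). PPP1R15B fell from 20.1 and 19.0 to 15.8 and 14.7 (−0.35, adjusted p = 0.0293), and EIF2S1, ATF4 and PPP1R15A did not pass.

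The globin genes were nearly all lower in TF1-BAR cells. Of 10 tested, 8 were downregulated and 0 upregulated, with a median log2 fold change of −1.80. The 10 include alpha genes as well as the fetal genes, and a link between these values and the regulators was not tested. The adult gene HBB had 200 and 183 fragments in TF1-BA cells and 2 and 3 in TF1-BAR cells. Its TF1-BA mean was 60.8-fold above the level that a floor of 3 fragments per library corresponds to. The TF1-BAR numbers are too low to set the size of the fold closely. Embryonic HBE1 went from 157 and 146 fragments to 4 and 2, and HBA2 from 60.6 and 53.1 FPKM to 4.74 and 4.87. Fetal HBG2 was the least affected of the more highly expressed genes, with 36.7 and 44.2 FPKM against 28.5 and 32.2 (−0.41), and its adjusted p of 0.0601 missed the threshold but passed in 4 of 16 alternatives, the lowest being 0.00767 and the highest 0.257. HBG1 gave 1.78 and 1.92 against 2.04 and 2.46 FPKM on 12 to 16 fragments (0.22, adjusted p = 0.245). HBG1 with HBG2 made up 55.3% and 59.0% of the summed FPKM of HBE1, HBG1, HBG2, HBD and HBB in TF1-BA cells, and 94.2% and 92.8% in TF1-BAR cells. The sum of all 10 globin genes, alpha genes and HBBP1 included, went from 222 and 219 to 74.3 and 78.6 FPKM.

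**Figure D5:**
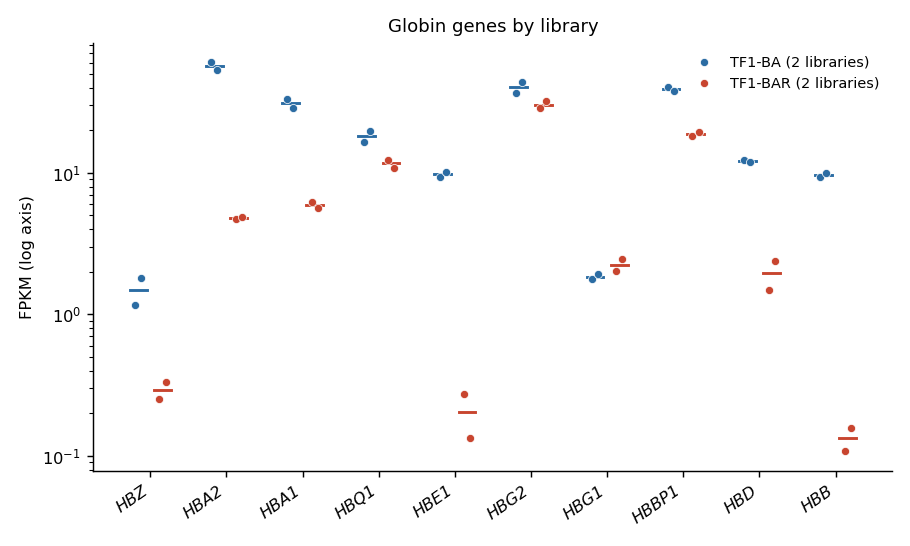
FPKM of 10 globin genes on a log axis, with 1 point per library, 2 libraries for each line and a bar at the mean. HBB and HBE1 were at most 0.273 FPKM in TF1-BAR cells, while HBG2 stood at 28.5 and 32.2 against 36.7 and 44.2.

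HBG1 and HBG2, like HBA1 and HBA2, are near-identical copies whose fragments can be divided between them in error, and the annotated spans of HBG2 and HBE1 overlap. HBD (−2.39), HBA1 (−2.29), HBZ (−1.31), HBBP1 (−1.03) and HBQ1 (−0.61) were also downregulated. As for genes that change with red cell maturity, the carbonic anhydrase CA1 rose from 6.53 ± 0.181 to 10.6 ± 0.573 FPKM (SD, n = 2, 0.66, adjusted p = 0.00911), and GCNT2, which makes the adult I antigen, gave 3.48 and 3.35 against 2.91 and 2.79 (−0.22, adjusted p = 0.129). HBB, HBE1, HBA1 and HBA2 passed in all 16 alternatives. The calls of HBD, HBBP1, HBZ, HBQ1 and CA1 were lost without TF1-BA replicate 1 or TF1-BA replicate 2, and those of HBZ and HBQ1 also without either TF1-BAR library, with adjusted p between 0.0508 and 0.131. HBZ and HBQ1 were also lost with no filter on low values (adjusted p = 0.0659 and 0.0805).

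The defining markers of the line were present in all 4 libraries, 9 of 9, with a summed level of 307 to 321 FPKM in TF1-BA cells and 384 to 387 in TF1-BAR cells. CD34 and KIT, markers of progenitors, were upregulated with log2 fold changes of 1.17 and 1.12. These calls were lost without TF1-BA replicate 2 (adjusted p = 0.0565 and 0.0527), and that of CD34 also without TF1-BA replicate 1 (0.0522). Megakaryocyte markers summed to 136 to 145 FPKM against 189 to 211, and PPBP among them was at 0 in 1 library. That sum was mostly ITGA2B, and all 3 tested megakaryocyte markers, ITGA2B, GP9 and GP1BA, were upregulated, GP1BA from 8.27 and 8.95 FPKM to 20.3 and 22.6 (log2 fold change 1.27, adjusted p = 0.00409). Monocyte markers summed to at most 15.6 against 17.4 to 18.2 with CD14 at 0 in 3 libraries, granulocyte markers to 2.61 to 3.58 against 1.92 to 2.01 with ELANE at 0 in both TF1-BAR libraries, and lymphoid markers to 22.3 to 24.2 against 10.2 to 10.5 with CD3E at 0 in 2 libraries. The monocyte sum was mostly LYZ, which did not pass, while CSF1R rose from 0.215 and 0.326 to 1.34 and 1.32 FPKM (log2 fold change 1.25, adjusted p = 0.0124). Without TF1-BA replicate 1 or TF1-BA replicate 2, the calls of CSF1R, ITGA2B, GP9 and GP1BA were lost, with adjusted p between 0.0521 and 0.182, and without TF1-BAR replicate 2 those of CSF1R, ITGA2B and GP9, with 0.0629, 0.0683 and 0.0760. The lymphoid sum was mostly CD3D, at 19.2 and 20.7 FPKM against 5.74 and 6.36, while CD79A stood the other way, at 1.84 and 2.19 against 3.55 and 3.15. These sums moved with the same lines as LIN28B, BCL11A, IGF2BP1 and HIC2, and their part in the results was not tested. In bulk RNA, fewer cells of a type and less RNA per cell cannot be told apart. The chromosomes of the 9 regulators had median log2 fold changes from 0.051 to 0.11, so none of the regulators lies on the chromosomes with the strongest shifts, 10 (−0.35) and 20 (0.39).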

How the data were processed

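The authors sequenced RNA of both lines as 150-bp paired-end reads from a kit that keeps no strand. They mapped it to GRCh38 with TopHat 2.0.13 and deposited FPKM made with Cufflinks and Cuffdiff 2.2.0, per the labels' processing notes and the methods. The annotation release is not given in the sources used here. Groups and replicates came from the labels, and columns were matched by name.

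The deposited FPKM were tested with limma 3.58.1 in R 4.3.3 (eBayes with trend, two-sided) on log2(FPKM + 0.5), without a block. Fragments were recovered by finding the library sizes and gene lengths that make the values whole to within 0.0001 fragments in all libraries. Of 30853 genes above 0, 14114 were whole at the GENCODE 44 exon length and 16739 at the smallest length that fits, against 0 of 300 with wrong sizes. For genes at the smallest length, the fragment numbers are the lowest that fit, and the true numbers may be a multiple of them. Library sizes were 18042299 and 15465497 (TF1-BA) and 15761642 and 16074303 (TF1-BAR) fragments, of which 98.7% lay in listed genes. A floor of 3 fragments was used. Fragment numbers cover counting error only.

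The members and lists were chosen with earlier results of these data known. Named were all 9 regulators, every list gene past the threshold and all globin genes. Other genes were named after their values were seen. SOX5 and HBM were not analysed here. Some other genes of these lists are not reported here. Of the alternatives, 14 changed the pseudocount, filter, scaling, variance model, block and each replicate in turn, and 2 were added after seeing the data, limma voom and protein-coding genes only. Seed matches were counted in GENCODE 44 MANE Select transcripts, and microRNAs came from RefSeq.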

Additional observations from a re-analysis of the deposited data

How the results depend on the processing

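Across the alternatives that kept all 4 libraries, 4 regulators passed in every one except with no filter on low values, where 3 did, and limma voom and protein-coding genes only, where 5 did. Leaving out 1 library gave 0 to 4, the number differentially expressed 0 to 1, and the partner genes past the threshold 0 to 13 of the 19. The number of differentially expressed regulators was 2 with 0.1 FPKM added and 2 by limma voom, with BCL11A beside LIN28B. The partner genes numbered 4 with no filter and 12 without the trend. The log2 fold change of NFIX, −0.028, was 0.037 after rescaling to TPM and −0.13 to 0.070 when 1 library was left out, above 0 without TF1-BA replicate 2 (0.045) or TF1-BAR replicate 1 (0.070). Over all genes, 4167 passed, against 1446 with no filter, 144 and 42 without TF1-BA replicate 1 or 2, and 3176 and 1028 without TF1-BAR replicate 1 or 2. Limma voom gave 5874. Where a line is left with 1 library, that library is assumed to vary like those of the other line.

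Replicate numbers 1 and 2 occur in both lines, and deviations of same-numbered libraries correlated at 0.0646. With 2 libraries per line, this value cannot show whether same-numbered libraries were grown or prepared together. With the replicate number as a block, 4 regulators passed, 1 was differentially expressed, and 18 partner genes passed, with 3969 calls over all genes. NFE2 (adjusted p = 0.0612) and HIC1 (0.0551) were lost and HBG2 (0.0247) was gained. SOX6, at 8 to 13 fragments, fell under the filter on low values and was tested only without it.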
